A study of Homo sapiens with 12 samples.

Results

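TNFRSF1A, TNFRSF10A, TNFRSF10B, TNFRSF10D and FAS encode 5 death receptors or relatives of the TNF receptor superfamily, and TRADD, FADD, CASP8 and CFLAR encode 4 proteins that gather on the inner tails of such receptors. These 9 genes were taken by symbol from the 60623 genes listed in each library. The RNA came from SK-OV-3, an established human ovarian cancer cell line, after 24 h of treatment, with 3 libraries for each of 4 treatments. The combination cells received 300 nM doxorubicin and 3 μM IN10018 together, the doxorubicin cells 300 nM doxorubicin alone, the IN10018 cells 3 μM IN10018 alone, and the DMSO cells the solvent. Doxorubicin is an anthracycline that blocks topoisomerase II on DNA, and IN10018 inhibits focal adhesion kinase (FAK). SK-OV-3 is a single line, and no other line was sequenced here. Whether a treatment was given to 3 separate cultures is not stated in the labels, so p-values measure the spread between these libraries only.

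Death receptors carry a death domain in the cytoplasmic tail. When the ligand TRAIL binds TNFRSF10A or TNFRSF10B, or Fas ligand binds FAS, the adaptor FADD is drawn to the tail and brings CASP8, an initiator caspase, which is activated there and starts apoptosis. CFLAR, which resembles CASP8 but lacks its protease activity, enters the same complex and limits or shapes this activation. TNFRSF10D binds TRAIL but has a shortened death domain that cannot signal death, and it is known as a decoy receptor. TNFRSF1A binds TNF and recruits TRADD, from which a membrane complex signals mainly to NF-κB, and a second complex with FADD and CASP8 can form later.

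The deposited values were FPKM, that is fragments per kilobase of gene length, scaled to the reads of the library. Whole reads were recovered from their ratios, with 8033951 to 12901505 reads per library. Differences were tested on log2(FPKM + 1) with limma over the 11301 genes at 1 FPKM or more in at least 3 libraries, and a gene was called at an adjusted p under 0.05. Log2 fold changes are therefore on the log2(FPKM + 1) scale, which understates changes of low genes. Library 2 of DMSO, library 1 of IN10018 and library 2 of the combination stood apart from their treatments along 1 axis, which carried 55.4% of the within-treatment spread. Of the epithelial markers, ERBB2 was at 46.1 to 146 FPKM and PAX8 at 2.78 to 7.64 FPKM, while PTPRC, CD3E, CD68 and CDH5 reached at most 0.0442 FPKM in any library. LYZ and LUM, which immune cells and fibroblasts also express, were at 0.220 to 12.7 and 5.68 to 16.0 FPKM. The summed level of the 5 epithelial markers was 204 to 399 FPKM in the combination, 214 to 272 FPKM in doxorubicin, 336 to 464 FPKM in IN10018 and 296 to 334 FPKM in DMSO, so that all doxorubicin libraries lay below all DMSO libraries. In the limma fit pooled over both drug backgrounds, doxorubicin lowered ERBB2 (-0.63, adjusted p = 0.0221) and KRT19 (-0.83, adjusted p = 0.0109). KRT8 (0.25, adjusted p = 0.555), KRT18 (0.36, adjusted p = 0.0880) and PAX8 (-0.24, adjusted p = 0.299) were not called in it. KRT18 was called higher in the combination against DMSO (0.68, adjusted p = 0.0395). The summed level of the 5 immune markers, most of it LYZ, was 0.247 to 1.80 FPKM in the combination, 3.22 to 12.7 FPKM in doxorubicin, 0.382 to 4.02 FPKM in IN10018 and 0.273 to 0.782 FPKM in DMSO. That of the 3 fibroblast markers was 7.70 to 9.37 FPKM in the combination, 5.73 to 7.58 FPKM in doxorubicin, 10.6 to 12.4 FPKM in IN10018 and 11.2 to 16.1 FPKM in DMSO. The part of these 3 lists in the results was not tested. In such bulk RNA, a change in the share of cells and a change of RNA per cell cannot be told apart.

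TRADD was the most abundant of the 9 transcripts, at 27.7 to 60.7 FPKM over the 12 libraries. TNFRSF1A (4.83 to 14.4 FPKM), TNFRSF10B (3.29 to 12.7 FPKM) and FADD (2.77 to 9.77 FPKM) followed with ranges that overlapped each other. CASP8 was at 2.44 to 4.86 FPKM and TNFRSF10D at 1.45 to 4.98 FPKM. The remaining 3 members were low, with TNFRSF10A at 0.253 to 1.43 FPKM, CFLAR at 0.557 to 0.986 FPKM and FAS at 0.266 to 0.862 FPKM. Only 6 of the 9 members passed the filter, and TNFRSF10A, FAS and CFLAR did not. CFLAR still held 142 to 286 reads per library, because its FPKM were divided by a length of 22482 bases. FAS held 18 to 55 reads and TNFRSF10A 9 to 54 reads.

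**Figure D1:**
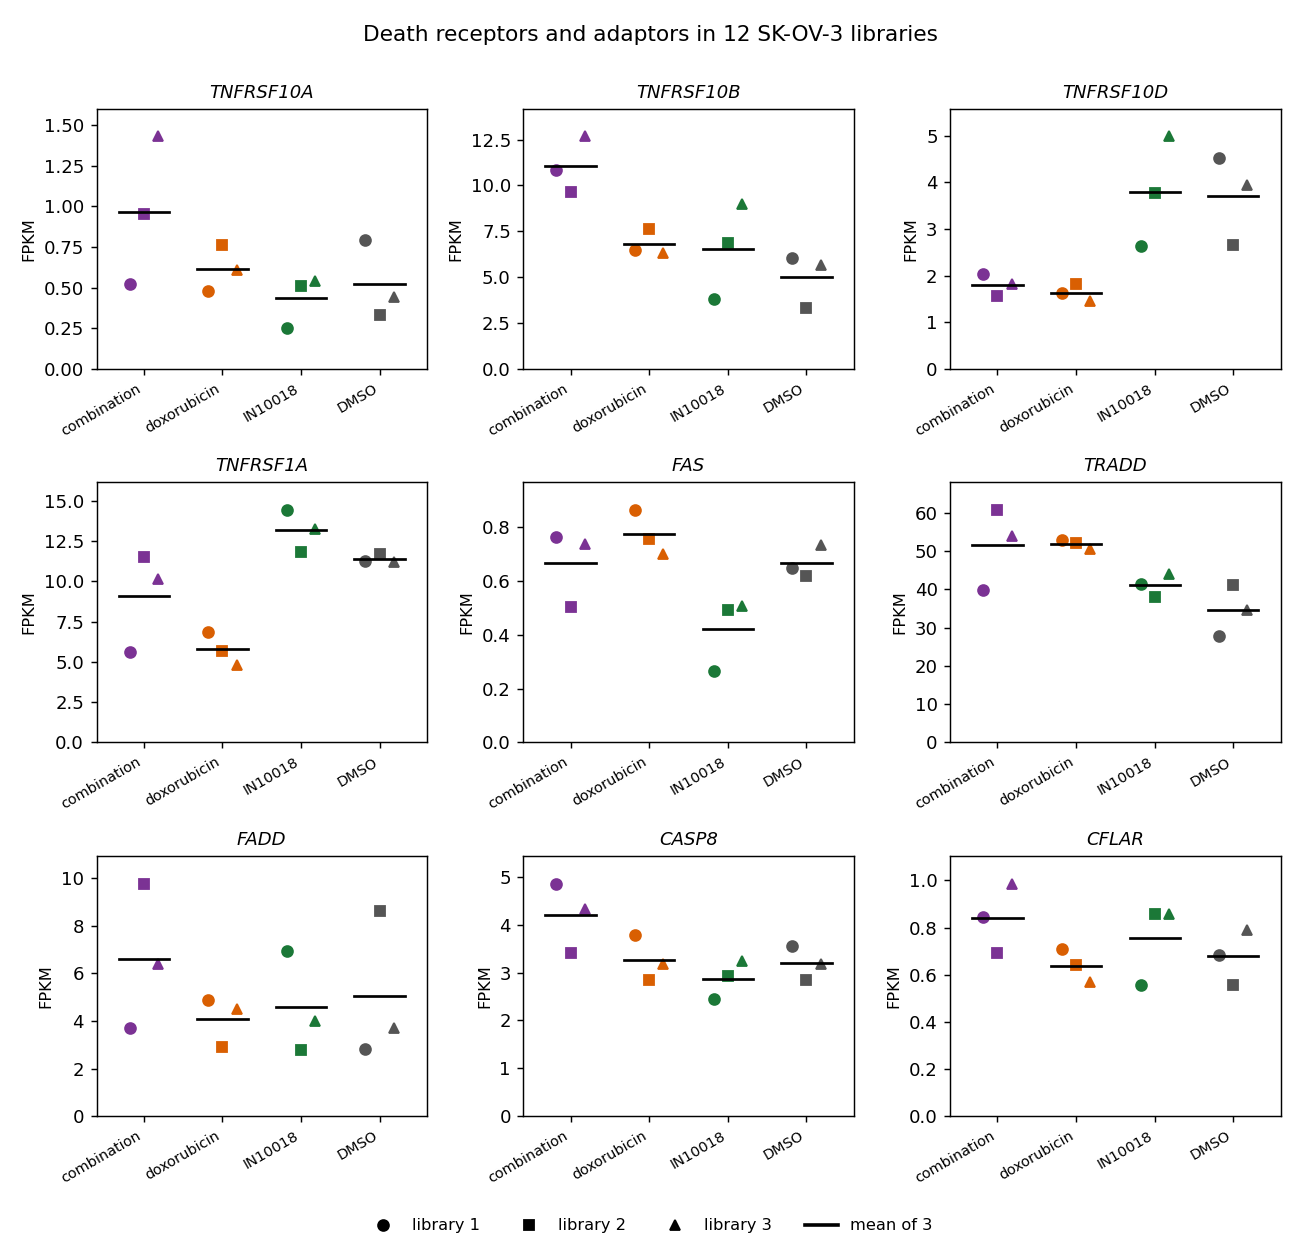
FPKM of the 9 members (vertical axes, linear from 0, 1 scale per gene) in each library of the combination, doxorubicin, IN10018 and DMSO. Symbols stand for libraries 1 to 3 and lines for the mean of 3. All 6 TNFRSF10D values with doxorubicin, at most 2.04 FPKM, lay below the 6 without it, which were at least 2.63 FPKM.

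The clearest change was in the balance of the TRAIL receptors. TNFRSF10D, the decoy, was lower in both treatments that held doxorubicin, while TNFRSF10B, which signals death, was highest in the combination. TNFRSF10D had 2.04, 1.56 and 1.82 FPKM in the combination, 1.63, 1.82 and 1.45 FPKM in doxorubicin, 2.63, 3.77 and 4.98 FPKM in IN10018 and 4.52, 2.64 and 3.95 FPKM in DMSO. No library with doxorubicin reached the level of any library without it. TNFRSF10D fell in the combination against DMSO (log2 fold change -0.73 ± 0.20, SE; adjusted p = 0.028), in doxorubicin against DMSO (-0.82 ± 0.20, adjusted p = 0.0263) and in the combination against IN10018 (-0.75 ± 0.20, adjusted p = 0.0235). Over both drug backgrounds, that is the mean of the combination minus IN10018 and of doxorubicin minus DMSO, it fell by 0.78 ± 0.14 (adjusted p = 0.00153). This pooled decrease was called in all 12 fits that left out 1 library, with an adjusted p of at most 0.00591. Between the combination and doxorubicin alone the difference was 0.09 ± 0.20 (adjusted p = 0.782), and between IN10018 and DMSO it was 0.02 ± 0.20.

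The single comparisons of TNFRSF10D were less secure than the pooled one. Against DMSO, the call in the combination was lost without library 2 or 3 of the combination or library 1 or 3 of DMSO (-0.73 to -0.60, adjusted p 0.0919 to 0.0972). That in doxorubicin was lost without any 1 of its libraries or library 1 or 3 of DMSO (-0.87 to -0.69, adjusted p 0.0639 to 0.116), and that in the combination against IN10018 without library 2 or 3 of either (-0.75 to -0.57, adjusted p 0.0627 to 0.0893).

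TNFRSF10B had 10.8, 9.65 and 12.7 FPKM in the combination, 6.49, 7.64 and 6.33 FPKM in doxorubicin, 3.78, 6.86 and 9.0 FPKM in IN10018 and 6.02, 3.29 and 5.65 FPKM in DMSO. Every combination library was above every library of the other 3 treatments. The mean was 11.05 ± 1.52 FPKM in the combination and 4.99 ± 1.48 FPKM in DMSO (SD, n = 3 each). TNFRSF10B rose in the combination against DMSO (1.03 ± 0.26, adjusted p = 0.0178), where the median of all genes also moved by 0.20, so that the gene stood 0.83 above that median. This call was lost without library 3 of the combination (0.94, adjusted p = 0.0914) or library 2 of DMSO (0.81, adjusted p = 0.0632). The pooled doxorubicin increase was 0.57 ± 0.19 (adjusted p = 0.0383). It was lost in 8 of 12 fits that left out 1 library, namely libraries 1 and 3 of the combination, each doxorubicin library, libraries 1 and 2 of IN10018 and library 2 of DMSO (0.43 to 0.60, adjusted p 0.0507 to 0.0948).

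Neither single drug changed TNFRSF10B by the test. The log2 fold change was 0.41 ± 0.26 for doxorubicin against DMSO (adjusted p = 0.388) and 0.30 ± 0.26 for IN10018 against DMSO. For the combination it was 0.62 ± 0.26 against doxorubicin (adjusted p = 0.291) and 0.73 ± 0.26 against IN10018 (adjusted p = 0.0755). Without the 3 libraries that stood apart, the difference between the combination and doxorubicin was called (0.70, adjusted p = 0.0399), in a fit that also called 1401 of all genes against 0 in the full set. The interaction, by which the combination exceeded the sum of both single effects, was 0.32 ± 0.37 (adjusted p = 0.709).

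Within a library, the ratio of TNFRSF10D to TNFRSF10B is free of library size. In the combination it was 0.188, 0.162 and 0.144, in doxorubicin 0.251, 0.238 and 0.229, in IN10018 0.696, 0.549 and 0.554, and in DMSO 0.750, 0.803 and 0.699. The combination libraries lay below all doxorubicin libraries, and these lay below all others. The log2 ratio averaged -2.61 ± 0.20 in the combination, -2.06 ± 0.07 in doxorubicin, -0.75 ± 0.19 in IN10018 and -0.42 ± 0.10 in DMSO (SD, n = 3 each). The difference made by doxorubicin was -1.87 beside IN10018 and -1.65 without IN10018.

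Both drugs lowered this ratio in a two-sided exact permutation test of 6 against 6 libraries, with the labels of 1 drug permuted within the states of the other. Doxorubicin changed the log2 ratio by -1.76 and IN10018 by -0.44. Each had an exact p of 0.005, which is the smallest that the 400 permutations can give, and an adjusted p of 0.0133 over 8 tests. Leaving out 1 library in turn gave -1.81 to -1.70 for doxorubicin and -0.50 to -0.39 for IN10018, with adjusted p of at most 0.0267. All IN10018 libraries lay below all DMSO libraries, but the closest, library 1 of IN10018 at 0.696 and library 3 of DMSO at 0.699, differed by less than the counting error. The counting error of a single log2 ratio was 0.12 to 0.20, since TNFRSF10D rested on 63 to 200 reads. The spread between doxorubicin libraries was thus no larger than counting noise.

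**Figure D2:**
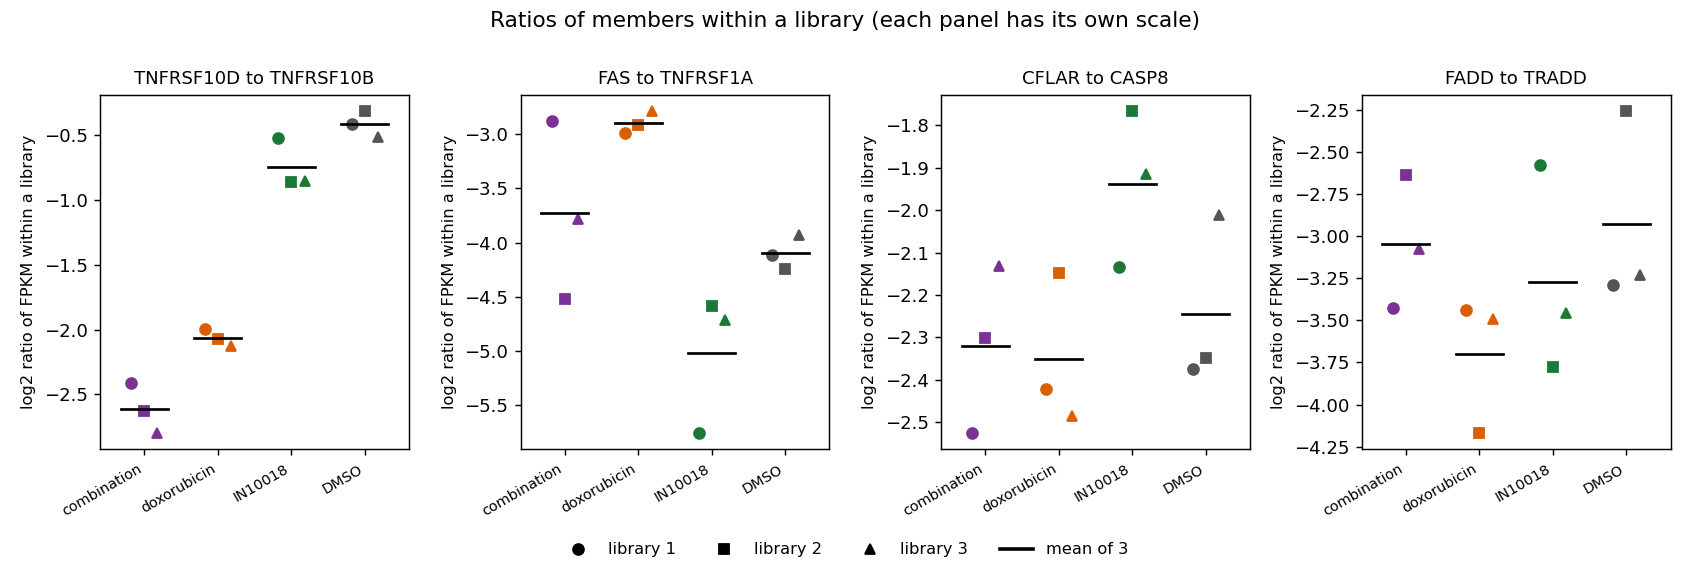
Log2 ratios of 4 pairs of members within each library (vertical axes, each panel with its own scale) for the combination, doxorubicin, IN10018 and DMSO. Symbols stand for libraries and lines for the mean of 3. The ratio of TNFRSF10D to TNFRSF10B was at most -1.99 in the 6 libraries with doxorubicin and at least -0.86 in the 6 without it.

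TNFRSF10A, the other TRAIL receptor that signals death, had 0.519, 0.954 and 1.43 FPKM in the combination, 0.478, 0.761 and 0.611 FPKM in doxorubicin, 0.253, 0.510 and 0.541 FPKM in IN10018 and 0.795, 0.331 and 0.445 FPKM in DMSO. All 4 treatments overlapped. In a voom fit over the 14402 genes with at least 10 reads in at least 3 libraries, chosen after seeing the data so that the low members could be tested, the pooled doxorubicin effect was 0.72 ± 0.33 (adjusted p = 0.133), while 22.2% of all genes were called. The decoy TNFRSF10C was at no more than 0.220 FPKM in any library. TNFRSF10A, TNFRSF10B and TNFRSF10D lie on the same strand within 205 kb of chromosome 8 (GRCh38 positions 23020133 to 23225126). TNFRSF10B and TNFRSF10D, which moved in opposite directions, are 66.4 kb apart.

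TNFRSF1A, the TNF receptor, fell with doxorubicin. It had 5.62, 11.5 and 10.2 FPKM in the combination, 6.83, 5.67 and 4.83 FPKM in doxorubicin, 14.4, 11.8 and 13.2 FPKM in IN10018 and 11.2, 11.7 and 11.2 FPKM in DMSO. All doxorubicin libraries lay below all DMSO libraries, and all combination libraries below all IN10018 libraries. In the combination, library 1 was at the doxorubicin level and libraries 2 and 3 were near DMSO. Doxorubicin against DMSO gave a log2 fold change of -0.88 ± 0.23 (adjusted p = 0.0297), and the pooled doxorubicin effect was -0.71 ± 0.16 (adjusted p = 0.00572). The pooled decrease was called in all 12 fits without 1 library (adjusted p of at most 0.0205). The call in doxorubicin alone was lost without any 1 of the 6 libraries compared (-0.99 to -0.78, adjusted p 0.0525 to 0.140).

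The decrease of TNFRSF1A was smaller in the combination, at -0.35 ± 0.23 against DMSO (adjusted p = 0.338) and -0.53 ± 0.23 against IN10018 (adjusted p = 0.127), and this difference between the doxorubicin effects was not shown by the interaction test (0.35 ± 0.32, adjusted p = 0.688). Under quantile normalization both were called (-0.65, adjusted p = 0.0381, and -0.82, adjusted p = 0.0122), and under median-ratio scaling the second was (-0.82, adjusted p = 0.0345). The combination exceeded doxorubicin alone by 0.53 ± 0.23 (adjusted p = 0.290), which was called without library 1 of the combination (0.81, adjusted p = 0.033).

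The stretch upstream of TNFRSF1A is shown because this gene, of the 4 members called, is the one for which an upstream sequence was used here. RefSeq promoter entries (GRCh38.p14) matched 5 of the 9 members. The 212 bases before the outermost annotated start of TNFRSF1A, at chr12:6342115-6342326 on the minus strand, read 5′ to 3′ as follows, with a reverse-strand CCAAT in capitals.
TNFRSF1A: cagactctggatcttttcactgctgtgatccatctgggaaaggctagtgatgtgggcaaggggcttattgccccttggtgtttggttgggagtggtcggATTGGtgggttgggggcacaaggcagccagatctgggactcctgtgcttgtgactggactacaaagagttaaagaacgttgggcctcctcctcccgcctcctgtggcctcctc
Searched on both strands, this window held 1 CCAAT box (CCAAT), no TATA box (TATAAA), no GC box (GGGCGG), no E-box (CACGTG), no AP-1 site (TGANTCA) and no NF-κB motif. Of 35114 RefSeq windows of the same length, 29.03% held the CCAAT box, 7.91% the TATA box, 37.7% the GC box, 5.15% the E-box, 5.71% the AP-1 site and 8.52% an NF-κB motif. The matches are a description of the letters only.

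FAS, the receptor of Fas ligand, was low throughout and was lowest in IN10018. It had 0.763, 0.501 and 0.736 FPKM in the combination, 0.862, 0.753 and 0.699 FPKM in doxorubicin, 0.266, 0.491 and 0.505 FPKM in IN10018 and 0.647, 0.616 and 0.734 FPKM in DMSO. All 3 IN10018 libraries lay below all DMSO libraries, on 18 to 32 reads in IN10018 and 39 to 45 reads in DMSO. In the added voom fit the difference between IN10018 and DMSO was -0.73 ± 0.32 (unadjusted p = 0.0381, adjusted p = 0.9996), and the pooled doxorubicin effect was 0.46 ± 0.22 (adjusted p = 0.150). Between libraries of a treatment its reads varied little beyond counting, with a chi-square per degree of freedom of 1.46.

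Relative to TNFRSF1A, FAS shifted with both drugs. In the added voom fit, the pooled doxorubicin effect was -0.79 for TNFRSF1A (adjusted p = 0.00553) and 0.46 for FAS (adjusted p = 0.150, not called). The pooled IN10018 effect in that fit was 0.41 for TNFRSF1A and -0.48 for FAS, neither of them called. The ratio of FAS to TNFRSF1A was 0.136, 0.0434 and 0.0725 in the combination, 0.126, 0.133 and 0.145 in doxorubicin, 0.0184, 0.0416 and 0.0382 in IN10018 and 0.0576, 0.0526 and 0.0654 in DMSO. All doxorubicin libraries were above all DMSO libraries, all combination libraries above all IN10018 libraries, and 1 combination library was below the DMSO range. Doxorubicin raised the log2 ratio by 1.25 (exact permutation p = 0.005, adjusted p = 0.0133), and IN10018 changed it by -0.88 (exact permutation p = 0.015, adjusted p = 0.03). The effect of IN10018 was -1.09 to -0.68 with 1 library left out (adjusted p 0.0133 to 0.09), and -0.53 (adjusted p = 0.1) without the 3 libraries that stood apart. Within treatments this ratio followed the axis of those libraries (Pearson r = -0.79, Spearman rho = -0.79 over 12 libraries), and the part of the axis in the ratio was not tested.

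TRADD, the first adaptor on TNFRSF1A, had 39.7, 60.7 and 54.0 FPKM in the combination, 52.9, 52.0 and 50.6 FPKM in doxorubicin, 41.4, 38.0 and 44.0 FPKM in IN10018 and 27.7, 41.2 and 34.7 FPKM in DMSO. The doxorubicin libraries were tight and all above DMSO, while library 1 of the combination lay within the DMSO range. TRADD rose in the pooled doxorubicin comparison (0.44 ± 0.15, adjusted p = 0.041). Leaving out 1 library ended this call in 10 of 12 fits (0.37 to 0.47, adjusted p 0.0554 to 0.101), and it held without library 1 of the combination or library 2 of DMSO. Under median-ratio scaling the value was 0.28 (adjusted p = 0.248). In single comparisons the log2 fold change was 0.56 ± 0.21 in the combination against DMSO (adjusted p = 0.0849) and 0.59 ± 0.21 in doxorubicin against DMSO (adjusted p = 0.102). The second was called without the 3 libraries that stood apart (0.72, adjusted p = 0.0172) and without library 1 of the combination (adjusted p = 0.0463), and the first without that library as well (0.73, adjusted p = 0.0178).

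FADD varied more between libraries of a treatment than between treatments. It had 3.69, 9.77 and 6.40 FPKM in the combination, 4.89, 2.89 and 4.50 FPKM in doxorubicin, 6.93, 2.77 and 4.02 FPKM in IN10018 and 2.83, 8.62 and 3.69 FPKM in DMSO. The highest value of the combination, IN10018 and DMSO fell in each case in the library that stood apart. Its reads, 41 to 232 per library, gave a chi-square per degree of freedom of 23.5 within treatments. No comparison called FADD. Between pairs of treatments its log2 fold changes ran from -0.15 ± 0.38 in doxorubicin against DMSO (adjusted p = 0.860) to 0.52 ± 0.38 in the combination against doxorubicin (adjusted p = 0.464). An antisense gene, AP000879.1, shares 54.9% of the exon bases of FADD and was listed at 0 in every library. The sources used here do not state whether reads were counted by strand.

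CASP8 had 4.86, 3.42 and 4.32 FPKM in the combination, 3.79, 2.84 and 3.18 FPKM in doxorubicin, 2.44, 2.92 and 3.23 FPKM in IN10018 and 3.56, 2.84 and 3.19 FPKM in DMSO. The combination libraries were above all IN10018 libraries and overlapped doxorubicin and DMSO. Its largest log2 fold change was 0.42 ± 0.17 in the combination against IN10018 (adjusted p = 0.102), and the pooled doxorubicin effect was 0.22 ± 0.12 (adjusted p = 0.195). No comparison called CASP8.

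CFLAR had 0.843, 0.694 and 0.986 FPKM in the combination, 0.708, 0.640 and 0.568 FPKM in doxorubicin, 0.557, 0.858 and 0.858 FPKM in IN10018 and 0.685, 0.557 and 0.791 FPKM in DMSO. All treatments overlapped DMSO. In the added voom fit its pooled doxorubicin effect was 0.05 ± 0.18 (adjusted p = 0.888). CFLAR and CASP8 lie 56.8 kb apart on the plus strand of chromosome 2, and the log2 ratio of CFLAR to CASP8 averaged -2.32 ± 0.20 in the combination, -2.35 ± 0.18 in doxorubicin, -1.94 ± 0.18 in IN10018 and -2.24 ± 0.20 in DMSO (SD, n = 3 each). Neither doxorubicin (-0.24, exact permutation p = 0.065, adjusted p = 0.104) nor IN10018 (0.17, exact permutation p = 0.175, adjusted p = 0.233) passed the threshold. The ratio of FADD to TRADD did not pass it either, with -0.27 for doxorubicin (exact permutation p = 0.43) and 0.15 for IN10018 (exact permutation p = 0.64).

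**Figure D3:**
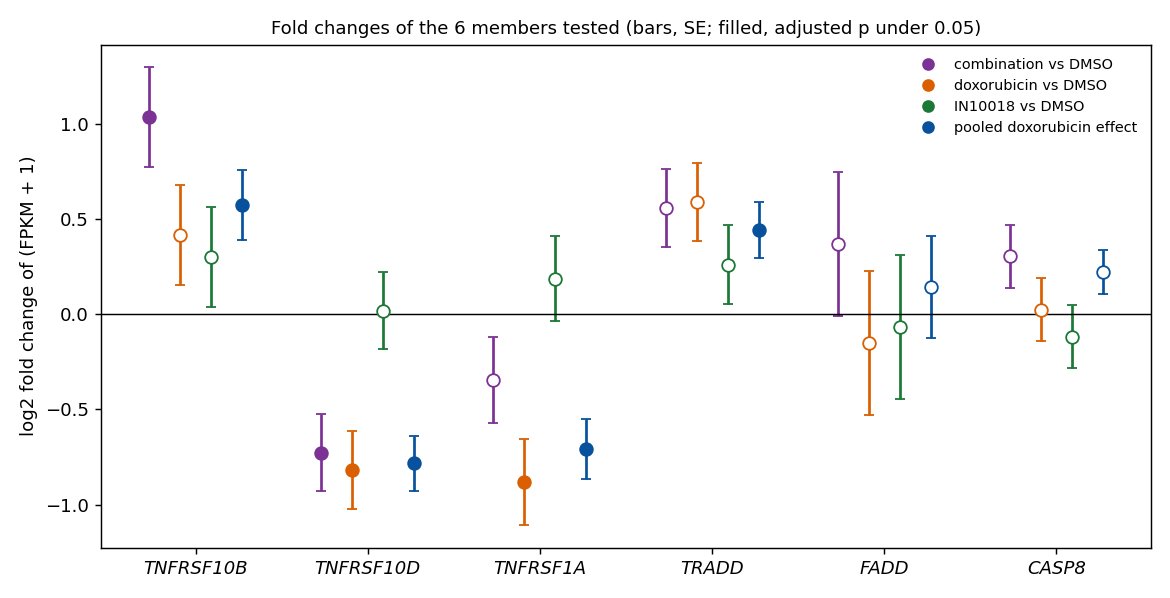
Log2 fold changes of FPKM + 1 (vertical axis) of the 6 members tested, for the combination, doxorubicin and IN10018 against DMSO and for the pooled doxorubicin effect. Bars are SE and filled points were called. TNFRSF10D lay at -0.73, -0.82 and -0.78 in the 3 comparisons that held doxorubicin and at 0.02 for IN10018.

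Across the 6 members tested, the combination against DMSO called 1 higher and 1 lower, where 15.6% of all genes were called (14.3% higher and 1.28% lower). Doxorubicin against DMSO called 0 higher and 2 lower, against 8.02% of all genes (2.1% lower). The combination against IN10018 called 1 lower, against 16.1% of all genes (1.43% lower). The pooled doxorubicin comparison called 2 higher and 2 lower, against 24.1% of all genes (19.2% higher and 4.84% lower). The comparisons with DMSO share the DMSO libraries, and those of the combination share its libraries. With so few members, these shares are a description.

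The direction of the calls among all genes depended on the scaling between libraries. Of the genes called in the combination against DMSO, 91.8% were higher as deposited, 65.0% after median-ratio scaling and 64.9% after quantile normalization. In the pooled doxorubicin comparison these shares were 79.9%, 55.5% and 52.8%. The decreases of TNFRSF10D and TNFRSF1A in the pooled comparison were called under both scalings (-0.89 and -0.93 for TNFRSF10D, -0.86 and -0.87 for TNFRSF1A). The increase of TNFRSF10B in the combination was also called under both (0.76, adjusted p = 0.0294, and 0.74, adjusted p = 0.0436). The pooled doxorubicin increase of TNFRSF10B was lost under quantile normalization (0.41, adjusted p = 0.0645).

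IN10018 on its own called no member. IN10018 against DMSO called 0.00885% of all genes, and the pooled IN10018 comparison, the mean of the combination minus doxorubicin and of IN10018 minus DMSO, called 0.0708%. The combination against doxorubicin called 0% of all genes in limma (1778 at an unadjusted p under 0.05, and 2 genes in the voom fit), and the interaction called 0% (689 at an unadjusted p under 0.05, and 0 in voom). Among the members, TNFRSF1A and TNFRSF10B were under 0.05 before adjustment in the combination against doxorubicin, and none was in the interaction. The median of the 6 members was 0.40 in the combination against doxorubicin, beside 0.23 for all genes, and 0.34 beside 0.20 in the combination against DMSO. Median-ratio scaling gave 0.16 beside 0.01 and 0.08 beside -0.03 in these 2 comparisons, and quantile normalization 0.15 beside 0.03 and 0.06 beside -0.03.

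The members also differed in how they moved with the axis of the 3 libraries that stood apart. With the treatment means removed, FADD rose along it (Pearson r = 0.95, Spearman rho = 0.94 over 12 libraries) and TRADD less closely (r = 0.70, rho = 0.66). TNFRSF10D (r = -0.87, rho = -0.83), TNFRSF10B (r = -0.84, rho = -0.73), CFLAR (r = -0.82, rho = -0.66), FAS (r = -0.80, rho = -0.67) and CASP8 (r = -0.75, rho = -0.59) ran the other way. TNFRSF10B and TNFRSF10D varied together within treatments (r = 0.95, rho = 0.88), and their ratio followed the axis less (r = 0.41, rho = 0.37). These correlations are a description, since all genes of a library share its depth and preparation. Without the 3 libraries the pooled doxorubicin effect was -0.93 for TNFRSF10D (adjusted p = 0.000381), -0.76 for TNFRSF1A (adjusted p = 0.00816), 0.36 for TNFRSF10B (adjusted p = 0.0363) and 0.45 for TRADD (adjusted p = 0.0261).

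**Figure D4:**
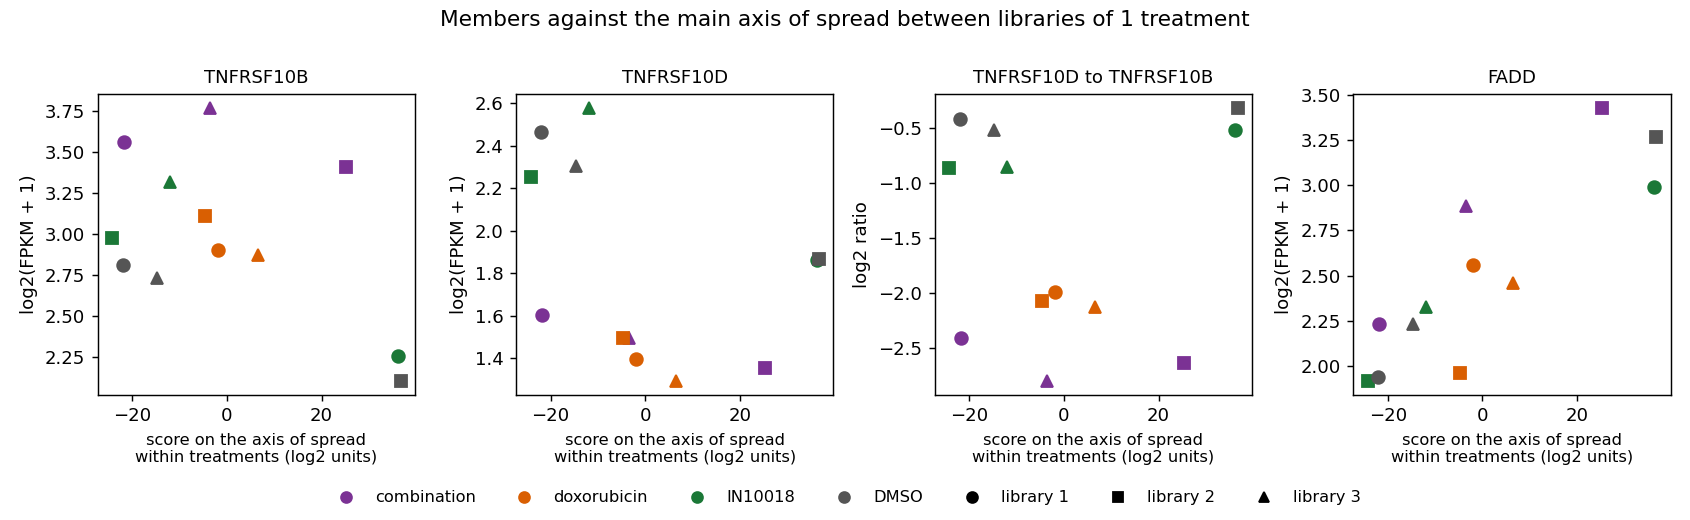
TNFRSF10B, TNFRSF10D and FADD as log2(FPKM + 1), and the log2 ratio of TNFRSF10D to TNFRSF10B (vertical axes), against the score of each library on the main axis of spread within treatments (horizontal axis, log2 units). Colours stand for treatments and symbols for libraries. Libraries at scores of 25.3 to 36.7 had the lowest TNFRSF10B and TNFRSF10D and the highest FADD of their treatment, while the ratio kept doxorubicin apart at every score.

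Over the 12 libraries, the genes with a mean of at least 5 FPKM whose pattern was most like each called member were as follows. For TNFRSF10D they were AC084117.1 (Pearson r = 0.95), CTH (r = 0.94) and VMP1 (r = 0.92), and for TNFRSF10B they were GPKOW (r = 0.97), SEC23B (r = 0.96) and TXNIP (r = 0.95). For TNFRSF1A they were CHST2, AC005392.2 and PLCD3 (r = 0.97 each), and for TRADD they were CDC34 (r = 0.98), HPS6 (r = 0.97) and TMEM129 (r = 0.97).

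Around the members, 69 further genes of the pathway were followed, of which 46 passed the filter. Pooled over both backgrounds, doxorubicin raised 15 and lowered 2 of these 46, where 19.2% of all genes were called higher and 4.84% lower. Of the 15, 5 genes, with TNF, BIRC3, TNFAIP3 and CYLD among them, would not have passed the filter without the libraries with doxorubicin. The filter thus favoured higher values there, and the count of 15 is a description. CYLD also reached 1 FPKM in 1 library without doxorubicin. The combination against DMSO called 10 higher and 0 lower, beside 14.3% and 1.28% of all genes, and doxorubicin against DMSO 7 higher and 2 lower, beside 5.92% and 2.1%. Neither the combination against doxorubicin nor IN10018 against DMSO called any of them.

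Of the 3 ligands tested, TNF and TNFSF10 moved in opposite directions with doxorubicin. TNFSF12 was not called in the pooled doxorubicin comparison (-0.38 ± 0.15, adjusted p = 0.0872). TNF, the ligand of TNFRSF1A, was at 0.460 to 2.14 FPKM in the 6 libraries with doxorubicin and 0.0491 to 0.263 FPKM in the 6 without it. It passed the filter only through libraries with doxorubicin. In the limma fit with no filter on low values it rose by 0.91 ± 0.18 in the pooled comparison (adjusted p = 0.0150). TNFSF10, which encodes TRAIL, had 5.77, 5.12 and 5.99 FPKM in the combination, 4.22, 3.96 and 2.46 FPKM in doxorubicin, 5.27, 7.92 and 8.57 FPKM in IN10018 and 10.5, 7.12 and 8.35 FPKM in DMSO. It fell in doxorubicin against DMSO (-1.10, adjusted p = 0.00855) and in the pooled comparison (-0.70 ± 0.15, adjusted p = 0.00507). With IN10018 present it was not called, at -0.53 in the combination against DMSO (adjusted p = 0.118) and -0.29 in the combination against IN10018 (adjusted p = 0.396). The combination exceeded doxorubicin alone by 0.57 (adjusted p = 0.270), and the interaction was 0.80 ± 0.31 (adjusted p = 0.685), neither of them called. FASLG, which encodes Fas ligand, was listed at 0 in every library. TNFSF10 was called in the pooled comparison under all 22 alternatives that tested it. TNF was tested under 18 and called in each. Apart from the fit with no filter, TNF was kept there through its libraries with doxorubicin, so those calls are a description.

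Of the other receptors, TNFRSF12A, which binds the ligand TWEAK and has no death domain, was far the most abundant at 3212 to 4334 FPKM in the 6 libraries with doxorubicin and 1167 to 1658 FPKM in the 6 without it. It rose by 1.40 ± 0.12 in the pooled comparison (adjusted p = 5.82e-06). TNFRSF21 and LTBR, the other 2 tested, were not called (0.05 ± 0.15 and 0.03 ± 0.13).

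Of 19 tested genes of the membrane complex that forms below TNFRSF1A, 7 were called higher in the pooled doxorubicin comparison and 0 lower, beside 19.2% and 4.84% of all genes. TNFAIP3, a ubiquitin-editing inhibitor of NF-κB signalling, BIRC3 and CYLD are among these 7. Without the libraries with doxorubicin, TNFAIP3, BIRC3 and CYLD would not have passed the filter. TNFAIP3 was at 2.26 to 4.63 FPKM in the 6 libraries with doxorubicin and 0.272 to 0.490 FPKM in the 6 without it, and with no filter it rose by 1.57 ± 0.13 (adjusted p = 0.00014). TRAF2, an adaptor that binds TRADD, rose by 1.02 ± 0.21 (adjusted p = 0.00358), and BIRC2, a ubiquitin ligase that TRAF2 recruits, by 0.79 ± 0.18 (adjusted p = 0.00539). BIRC3, a ligase like BIRC2, was at 0.832 to 1.67 FPKM with doxorubicin and at most 0.152 FPKM without it, and with no filter it rose by 0.93 ± 0.10 (adjusted p = 0.000413). SHARPIN and RBCK1, subunits of the linear ubiquitin ligase, and CYLD, a deubiquitinase, were the other 3. The call of RBCK1 was lost under 12 of 22 alternatives and that of SHARPIN under 2. RIPK1, the kinase of this complex, was not called (0.18 ± 0.19, adjusted p = 0.542).

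Of 8 tested genes of the death-inducing complex and of necroptosis, DEDD2, CASP8AP2 and FAIM rose (0.79, 0.43 and 0.35) and 0 fell. The pooled doxorubicin comparison, from which these values come, called 19.2% of all genes higher and 4.84% lower. The calls of DEDD2, CASP8AP2 and FAIM were each lost under 9 or more alternatives. RIPK3, the necroptosis kinase, was listed at 0 in every library. Of 7 tested genes of the caspase cascade, CASP6, an executioner caspase, fell by 0.54 ± 0.12 (adjusted p = 0.00497), and 0 rose, beside the same shares of all genes. PIDD1, a death domain protein that joins CRADD and CASP2 in the PIDDosome, had the largest increase of the 46 tested on the log2(FPKM + 1) scale, 2.36 ± 0.16 (adjusted p = 1.12e-06). With a pseudocount of 0.1 FPKM it was at 2.72 and TNFAIP3 at 2.79. It was at 12.5 to 23.5 FPKM in the 6 libraries with doxorubicin and 1.92 to 3.08 FPKM in the 6 without it. CDKN1A, a cell cycle inhibitor, rose by 2.28 ± 0.20 (adjusted p = 7.50e-06).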

How the data were processed

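RNA-seq values of 12 SK-OV-3 libraries were analysed, 3 for each of 4 treatments. Per the study's methods, RNA was isolated with RNA iso plus, strand-directional libraries were made with a NEBNext Ultra kit, and reads were checked with FASTQC and run through TopHat and Cuffdiff. Cufflinks and the build hg38 are named only in the submitters' processing notes. The authors deposited FPKM, 1 table per library, with 1 length per gene. Which program wrote them was not stated. Whole reads were recovered from their ratios (24090 of 24090 genes above 0 in at least 3 libraries, relative tolerance 3e-12), giving 8033951 to 12901505 reads per library. Counting error covers sampling of reads only.

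Members and lists were chosen with earlier results of these data known. Genes at 1 FPKM or more in at least 3 libraries (11301) were fitted as log2(FPKM + 1) over all 12 libraries with limma 3.58.1 (eBayes with trend, 8 residual degrees of freedom) in R 4.3.3. Tests were two-sided, with Benjamini-Hochberg adjustment over all genes tested and a threshold of 0.05. Errors of log2 fold changes are SE. Ratios within a library used no pseudocount and an exact permutation test, adjusted over 8 tests. Other steps used Python 3.11.15. The fit was tested on simulated data.

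The rule for named genes took all 9 members, called or not (6 could be tested in the limma fit, and not every uncalled value is printed), with up to 4 called genes of each list of related genes (those with the largest change), further genes a statement needs, and for each called member the 3 genes with the highest Pearson r. Alternatives changed the pseudocount, the filter, the scaling, the libraries in the fit, the replicate block and the test (voom on recovered reads). Positions are GENCODE 29 on GRCh38.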

Additional observations from a re-analysis of the deposited data

How the results depend on the processing

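The number of members called depended on the setting. In the combination against DMSO it was 2, and 0 with no filter on low values, 1 with the filter at 5 FPKM (where TNFRSF10D was not tested), 1 with only the compared treatments in the fit and 0 to 3 with 1 library left out. Under quantile normalization, 1 member was called higher and 2 lower, beside 915 and 495 of 11301 genes. The fit with no filter called 1126 of 33487 genes, and that at 5 FPKM 928 of 5164. With only the compared treatments, 914 of 11301 genes were called. In doxorubicin against DMSO the number of members called was 2, against 0, 1 and 0 to 3 for no filter, the 5 FPKM filter and 1 library left out. Of all genes, 491 of 33487 were called with no filter and 638 of 5164 at 5 FPKM. Without the 3 libraries that stood apart, 1 member was called higher and 2 lower, beside 1331 and 1735 of 11020 genes. In the combination against doxorubicin the number of members called was 0, and 0 to 1 with 1 library left out. It was 1 without the 3 libraries that stood apart, where 1401 of 11020 genes were called. In the combination against IN10018 the number of members called was 1, and 0 to 2 with 1 library left out. It was 0 with no filter (1337 of 33487 genes), 0 at 5 FPKM (934 of 5164) and 0 with only the compared treatments (1019 of 11301). It was 2 under median-ratio scaling (1513 of 11301 genes) and 2 under quantile normalization (1604 of 11301). For the pooled doxorubicin effect it was 4, against 2 with no filter and 2 to 3 with 1 library left out, and for the pooled IN10018 effect 0, against 0 to 1. The pooled doxorubicin comparison called 1 member higher and 2 lower under median-ratio scaling and under quantile normalization. With the filter at 5 FPKM it called 2 members higher and 1 lower, beside 1113 and 286 of 5164 genes. With the replicate block the number of members called was 1, 0 and 2 in the combination against DMSO, doxorubicin against DMSO and the pooled doxorubicin effect. Whether the replicate numbers pair the libraries is not stated in the labels. Correlations of the deviations of libraries with the same number ran from -0.68 to 0.72. They cannot decide it, since 1 axis carried 55.4% of the within-treatment spread.

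Of the fold changes given in the report, those that changed sign were from comparisons that did not call the member. FADD in doxorubicin against DMSO was 0.24 without the 3 libraries (-0.42 to 0.24 with 1 left out), in IN10018 against DMSO 0.037 (-0.36 to 0.33), and pooled over doxorubicin -0.0074 under median-ratio scaling and -0.0031 under quantile normalization (-0.0021 to 0.34 with 1 left out). CASP8 in doxorubicin against DMSO was -0.018 under quantile normalization and -0.039 without the 3 libraries (-0.063 to 0.10 with 1 left out). TNFRSF10D was -0.15 to 0.20 in IN10018 against DMSO with 1 library left out, and -0.093 and -0.10 in the combination against doxorubicin under the 2 scalings. Of those not given, TNFRSF10D in the interaction, TRADD in the combination against IN10018, and TNFRSF10D, TRADD and CASP8 in the pooled IN10018 effect turned negative under median-ratio scaling. The effect of IN10018 on the log2 ratio of FADD to TRADD was -0.018 to 0.32 with 1 library left out. That on the ratio of FAS to TNFRSF1A kept its sign but not its call without the 3 libraries, at -0.53 (-1.09 to -0.68 with 1 left out). The causes were not tested. Among all genes, calls ran over the alternatives other than leaving out 1 library from 914 to 1908 in the combination against DMSO (1761 as reported), 491 to 3066 in doxorubicin against DMSO (906), 0 to 1401 in the combination against doxorubicin (0), 934 to 2012 in the combination against IN10018 (1815) 1399 to 3680 in the pooled doxorubicin effect (2720) and 2 to 13 in the pooled IN10018 effect (8). With 1 library left out they ran from 700 to 2384, 358 to 1282, 0 to 674, 860 to 2178, 2009 to 2913 and 2 to 307 in these 6 comparisons, and each highest count was without library 1 of the combination. TNFRSF10A (9 to 54 reads per library) and FAS (18 to 55) are limited by depth.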
